A study of Mus musculus with 16 samples.

Results

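Clec3a, Cytl1, Ucma, Scrg1, Snorc and Chodl encode small secreted or membrane proteins made by cartilage cells, and were grouped by name because their levels were low in injured discs. They are 6 of the 49315 genes in the deposited table. Of these, 5 are listed under their own symbols, and Snorc is listed as 3110079O15Rik and was matched by its Ensembl identifier (ENSMUSG00000026258). The series profiled RNA of 16 mice by bulk sequencing, and each library holds 4 tail intervertebral discs of 1 animal, cut away from the endplate cartilage. The groups were 3 intact wild-type, 4 injured wild-type, 4 intact Adam8EQ and 5 injured Adam8EQ mice. The series title names DBA, an inbred strain, beside the mutant, and the labels give neither the age of the mice, the way the discs were injured nor the time after injury. Adam8 is a metalloprotease of the cell membrane, and nothing more is said of the EQ allele in the labels.

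Tail discs hold a gelatinous centre, the nucleus pulposus, inside a fibrocartilaginous ring, between cartilage endplates. Chondrocytes and chondrocyte-like disc cells fill their matrix with collagen II and aggrecan, and beside these abundant polymers they make small proteins that are found in few other tissues. Clec3a is a secreted C-type lectin of the cartilage matrix, and Chodl (chondrolectin) is a C-type lectin that spans the membrane and is also known from muscle and motor neurons. Ucma is a secreted protein rich in gamma-carboxylated glutamate, a vitamin K-dependent modification, and Cytl1 is a small secreted cytokine-like protein of chondrocytes. Scrg1 is a small secreted protein first described in scrapie-infected brain and also made in cartilage. Snorc is a membrane-spanning chondroitin sulfate proteoglycan of cartilage.

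In GENCODE M21 on GRCm38 all 6 are protein coding and on the plus strand. Clec3a (ENSMUSG00000008874) lies on chromosome 8 from 114418086 to 114425846, and Scrg1 (ENSMUSG00000031610) on the same chromosome from 57455923 to 57477585. Cytl1 (ENSMUSG00000062329) lies on chromosome 5 from 37735519 to 37739820, and Ucma (ENSMUSG00000026668) on chromosome 2 from 4976122 to 4985748. Snorc lies on chromosome 1 from 87470271 to 87475482, and Chodl (ENSMUSG00000022860) on chromosome 16 from 78930948 to 78951733. In that annotation 0 other genes overlap them. The exons of Clec3a, Scrg1, Snorc, Ucma and Cytl1 cover 591, 700, 722, 884 and 1056 bases, and those of Chodl cover 5491.

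Cytl1, Ucma and Chodl had the lowest injured levels relative to intact in mutants, and RefSeq promoter entries (GRCm38.p6) were found for these 3 members. For Snorc, Scrg1 and Clec3a no entry was found, so the entries, not the size of the difference, set which members are shown. The 250 bases before the start of each gene are given, as the stretch of regulatory sequence closest to it. Each is on the plus strand, 5′ to 3′, and capitals mark matches to the motifs searched. The windows are chr2:4975872-4976121 for Ucma, chr5:37735269-37735518 for Cytl1 and chr16:78930698-78930947 for Chodl.
Ucma: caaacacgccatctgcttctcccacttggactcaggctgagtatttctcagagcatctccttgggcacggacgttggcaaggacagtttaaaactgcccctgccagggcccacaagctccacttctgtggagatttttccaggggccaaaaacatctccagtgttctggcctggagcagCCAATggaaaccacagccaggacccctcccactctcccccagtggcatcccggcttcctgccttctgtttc
Cytl1: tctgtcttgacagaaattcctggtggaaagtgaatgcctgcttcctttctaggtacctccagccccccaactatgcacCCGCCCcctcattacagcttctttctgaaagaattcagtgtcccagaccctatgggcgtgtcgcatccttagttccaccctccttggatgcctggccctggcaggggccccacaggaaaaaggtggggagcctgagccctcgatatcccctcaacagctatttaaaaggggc
Chodl: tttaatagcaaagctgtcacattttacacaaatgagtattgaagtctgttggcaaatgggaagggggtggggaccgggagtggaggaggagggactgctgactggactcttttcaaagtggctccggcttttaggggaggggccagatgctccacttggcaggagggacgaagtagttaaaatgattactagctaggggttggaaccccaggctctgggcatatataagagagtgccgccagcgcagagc
The motifs were the SOX core ACAAT, the CCAAT box CCAAT, the TATA sequence TATAAA, the GC box GGGCGG and the AP-1 sequence TGANTCA, each on both strands. Ucma held 1 CCAAT box, 71 to 67 bases before the start, and Cytl1 held 1 GC box on the minus strand, 172 to 167 bases before the start. No match overlapped another, and the Chodl window held none of these letters. Variants of the motifs, such as other TATA sequences, were not searched. Among 32851 windows of the same length, 33.8% held CCAAT, 32.7% GGGCGG, 27.7% ACAAT, 12.4% TATAAA and 6.75% TGANTCA. The windows were 56.4%, 54.8% and 52.0% G and C in Ucma, Cytl1 and Chodl, against a median of 52.4% over all windows.

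All levels are TPM, read counts scaled by gene length and library total, so that levels of different genes can be compared. Changes are given as differences in mean log2(TPM + 1), each with the standard error of the fit. The members were chosen on the injured and intact levels, so these are described without a test. Libraries held an implied 10197876 to 24838465 reads, with injured Adam8EQ mouse 1 the deepest. Adam8 itself lay at 0.956 to 2.97 TPM in the 7 intact libraries, at 3.52 and 5.59 TPM in injured wild-type mice 1 and 2 and at 66.3 and 54.9 TPM in mice 3 and 4, and at 16.2 to 264.1 TPM in injured Adam8EQ mice. In Adam8, injured wild-type mice 3 and 4 therefore stood apart from mice 1 and 2. They did not go together in the members. Of the injured wild-type mice, mouse 3 was the lowest in all 6 members, and mouse 4 was the highest in Ucma, Scrg1 and Snorc. In bulk tissue, fewer cells of a type and less RNA per cell cannot be told apart.

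In intact discs the members lay in the order Clec3a, Cytl1, Scrg1, Snorc, Ucma and Chodl by mean TPM in both genotypes. Scrg1 and Snorc overlapped in range in each genotype. Within single intact libraries Scrg1 was above Snorc in every mouse except mutant mouse 1 (652 against 668 TPM). The other neighbours in that order did not overlap within a genotype. Clec3a ranked 4 to 8 among all genes of an intact library and took 0.976% to 1.53% of all TPM. Together the 6 members took 1.28% to 1.57% of all TPM in intact wild-type discs and 1.64% to 2.11% in intact Adam8EQ discs. In injured discs this share was 1.38%, 1.12%, 0.202% and 0.888% in wild-type mice 1 to 4, and 0.199% to 0.902% in the 5 Adam8EQ mice.

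**Figure D1:**
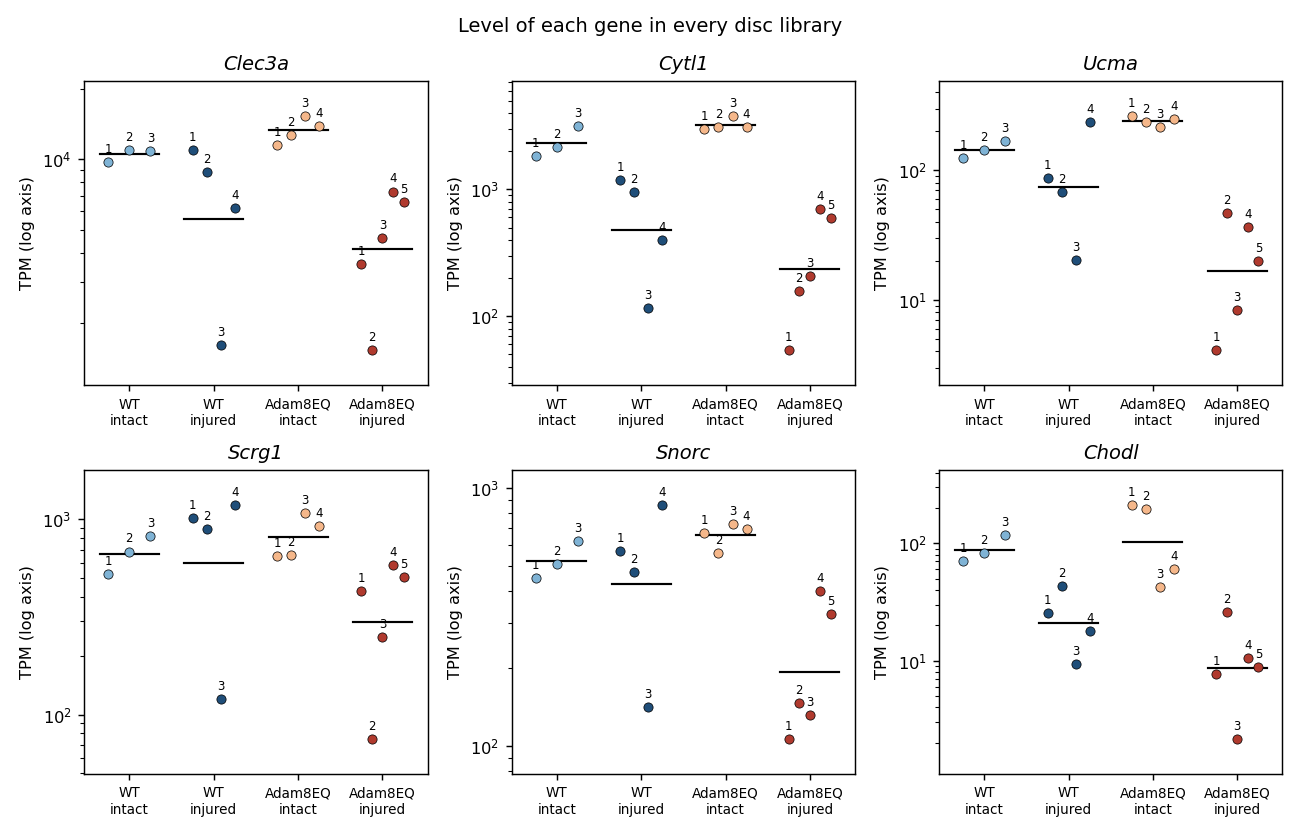
TPM of each gene (log axis) in every library by group, with mouse numbers beside the points and a line at the mean of log2(TPM + 1) turned back to TPM. In Adam8EQ discs the injured points lie below the intact points in all 6 panels, while in the wild type Scrg1 and Snorc of injured mice 1, 2 and 4 lie near or above the intact points.

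Clec3a, the lectin and the most abundant member, was measured at 9758, 10969.5 and 10804 TPM in intact wild-type mice 1 to 3 and at 10973, 8796, 1611 and 6182 TPM in injured wild-type mice 1 to 4. In intact Adam8EQ mice 1 to 4 it lay at 11564, 12703, 15287 and 13892 TPM, and in injured Adam8EQ mice 1 to 5 at 3589.6, 1540.5, 4632, 7293 and 6577 TPM. Every injured mutant was below every intact mutant, whereas injured wild-type mouse 1 was just above the intact range and mouse 3 was near the lowest mutant. The change with injury was -1.68 ± 0.55 in mutants (SE, n = 5 and 4) and -0.91 ± 0.63 in the wild type (SE, n = 4 and 3). Its injured mean was 35.4% of the intact mean in mutants and 65.6% in the wild type.

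Cytl1, the cytokine-like protein, stood at 1839, 2168 and 3169 TPM in intact and 1176, 951, 116 and 396 TPM in injured wild-type mice. In mutants the intact values were 2991, 3121, 3771 and 3110.3 TPM and the injured values 54.3, 157, 206, 696 and 592 TPM. Injured and intact libraries did not overlap in either genotype. The change was -3.77 ± 0.71 in mutants and -2.29 ± 0.81 in the wild type (SE), with injured means at 10.5% and 27.6% of the intact means. In mutants only 1 of the 24188 tested genes had a larger drop, so Cytl1 was placed 2 from the largest, followed by Ucma at 3, and Chodl was placed 5. These places are part of how the members were chosen.

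Ucma, the Gla-rich protein, lay at 125, 143 and 168 TPM in intact wild-type mice and at 87.6, 68.3, 20.4 and 237 TPM in injured ones. The 4 intact mutants held 262, 235, 216 and 249.9 TPM, and the 5 injured mutants 4.10, 46.6, 8.31, 36.7 and 19.9 TPM. The mutants were split cleanly, and the wild type was not: injured mouse 4 had more Ucma than any intact wild-type mouse. The lowest value, in injured mutant mouse 1, rested on 21 implied reads. The change was -3.76 ± 0.65 in mutants and -0.96 ± 0.73 in the wild type (SE), and the injured mean was 9.60% of the intact mean in mutants and 71.0% in the wild type.

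Scrg1, the small secreted protein, was at 527, 684 and 821 TPM in intact wild-type mice and at 1011, 889, 120.1 and 1186 TPM in injured ones. It was therefore above every intact value in 3 of the 4 injured wild-type mice and far below in mouse 3. In mutants it was at 652, 658, 1071 and 928 TPM when intact and at 429, 75.2, 250.1, 581 and 506 TPM when injured. All 5 injured mutants were below the 4 intact ones, mouse 2 the furthest. The change was -1.43 ± 0.65 in mutants and -0.15 ± 0.73 in the wild type (SE). The wild-type mean of TPM went the other way, from 677 ± 147 (SD, n = 3) to 802 ± 470.4 (SD, n = 4). Without mouse 3 the wild-type change was 0.62. A loss of Scrg1 on injury was thus not shown in the wild type. The 95% interval of that change, with mouse 3 included, ran from -1.72 to 1.41 and does not exclude one.

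Snorc, the membrane proteoglycan, followed a similar course at a lower level. Its wild-type values were 448, 509 and 626 TPM in intact and 572, 471, 141 and 862 TPM in injured mice. Its mutant values were 668, 559.7, 724 and 692 TPM in intact and 107, 146, 131, 399 and 324 TPM in injured mice. Again the mutants did not overlap, and injured wild-type mice 1, 2 and 4 were within or above the intact range. The change was -1.77 ± 0.46 in mutants and -0.29 ± 0.52 in the wild type (SE), and without injured wild-type mouse 3 the wild-type change was 0.23. The injured wild-type mean was 96.9% of the intact mean. A loss of Snorc was thus not shown in the wild type. The 95% interval of that change, with mouse 3 included, ran from -1.41 to 0.82 and does not exclude one.

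Chodl, the membrane lectin and the least abundant member, was at 70.9, 82.2 and 118 TPM in intact wild-type mice and at 25.4, 43.2, 9.38 and 18.0 TPM in injured ones. In intact mutants it split into 212 and 196 TPM in mice 1 and 2 and 42.2 and 60.2 TPM in mice 3 and 4, a division that runs with the library names, which begin with A8 in the former and M in the latter. What the names stand for is not given in the labels, and their part in the split was not tested. In injured mutants Chodl was at 7.63, 26.2, 2.16, 10.6 and 8.78 TPM, below every intact value of either genotype. The change was -3.41 ± 0.60 in mutants and -2.03 ± 0.68 in the wild type (SE), and in both genotypes no injured library reached an intact one. Within the mutants named A8 (2 intact, 2 injured) the injured mean was 8.28% of the intact mean, and within those named M (2 intact, 3 injured) it was 14.0%.

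Side by side, injured and intact libraries did not overlap in 6 of 6 members in mutants, where limma called 30.8% of all 24188 tested genes and 17.7% as lower, and in 2 of 6 (Cytl1 and Chodl) in the wild type, where it called 0.116% and 0.00827% as lower. That wild-type share rests on single libraries: its 28 calls became 463 (91 lower) without injured mouse 1 and 2 (0 lower) without intact mouse 1. These shares are of limma calls, which is another measure than groups that do not overlap. The share of all genes without overlap was not counted. Nothing is read from these counts, since the same levels chose the members. The median change of the 6 was -2.59 in mutants and -0.94 in the wild type, beside medians over all tested genes of -0.08 and 0.01. Cytl1 and Chodl were at 4.85% to 49.2% of the intact mean in every injured library of the wild type. Ucma, Scrg1 and Snorc stood at 163%, 175% and 163% of it in injured wild-type mouse 4, in which Cytl1 and Chodl were at 16.5% and 19.9%. The members thus did not move as 1 block within the wild type. In mutants every member was under its intact mean in every injured mouse, from 1.67% for Cytl1 in mouse 1 to 70.3% for Scrg1 in mouse 4. Since injured and intact mutants did not overlap in any member, the same holds by necessity within each set of library names, A8 and M.

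**Figure D2:**
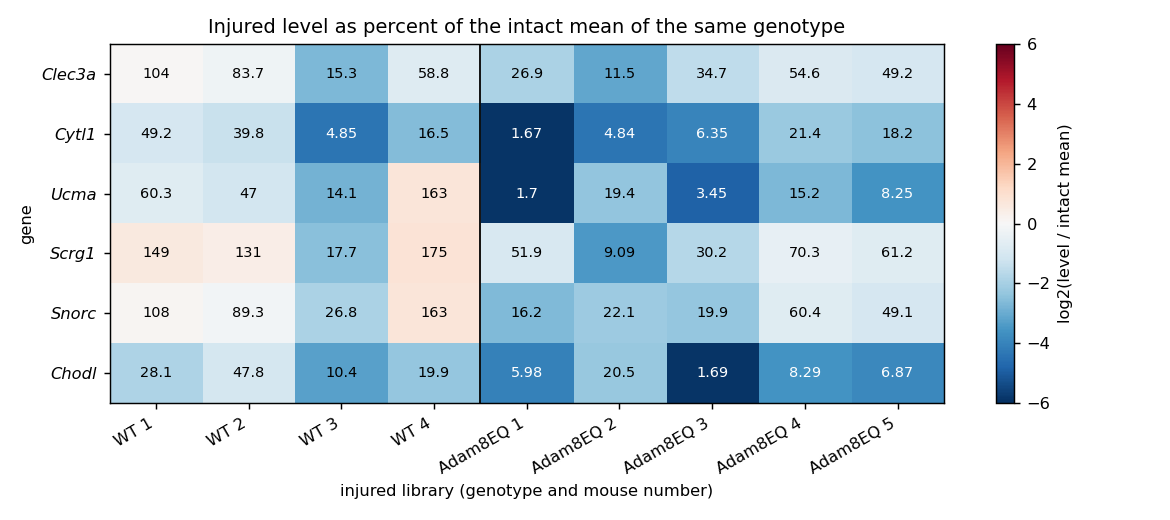
Level of each gene (rows) in each injured library (columns) as a percent of the intact mean of its genotype, with colour for the log2 ratio. Wild-type mouse 4 combines 163% for Ucma and Snorc and 175% for Scrg1 with 16.5% for Cytl1 and 19.9% for Chodl, and all 30 values of the mutants are below 100%.

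Whether the Adam8EQ mutation went with other levels of these genes was tested between genotypes. All wild-type library names begin with D and all mutant names with A8 or M. The mutation therefore cannot be told apart from anything else that runs with these names, whose meaning is not given in the labels. These contrasts did not choose the members but share libraries with the injury contrasts that did. Genes chosen as high in intact and low in injured discs, above all in mutants, can be pushed by that choice towards higher intact and lower injured levels in mutants, so the common signs below are given as description. In intact discs all 6 members had a higher mean in mutants, and 0 of 6 passed limma's test at an adjusted p under 0.05, over 24188 genes of which 0.0165% were called (0.00413% higher and 0.0124% lower in mutants). At an unadjusted p under 0.05 there were also 0 of 6. The difference was largest for Ucma, 241 ± 20.1 TPM (SD, n = 4) against 145 ± 21.5 TPM (SD, n = 3), a log2 difference of 0.73 ± 0.73 (SE, limma adjusted p 1.0, and 0.232 to 1.0 over all settings). Every intact mutant had more Ucma and more Clec3a than every intact wild-type mouse. The share of all genes without overlap between these groups was not counted, and neither gene passed, so nothing is read from this separation. The differences of the other 5 lay between 0.20 for Chodl and 0.47 for Cytl1, and with only the mutants named M that of Chodl was -0.80. The 95% interval for Ucma ran from -0.84 to 2.30, which includes 0 as well as differences well above the one measured.

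In injured discs all 6 members had a lower mean log2 level in mutants, and 0 of 6 passed limma's test (0.918% of all genes were called, 0.19% higher and 0.728% lower). The split of those calls over all genes, 46 higher and 176 lower, was 76 and 84 with median-of-ratios scaling. At an unadjusted p under 0.05 there were 2 of 6, Ucma and Snorc, where 20.3% of all genes were, so the count is not read as a result about the members. Ucma was at 23.1 ± 18.2 TPM in mutants (SD, n = 5) and 103 ± 93.4 TPM in the wild type (SD, n = 4), a difference of -2.07 ± 0.65 (SE, limma adjusted p 0.107) with a 95% interval from -3.45 to -0.70. Of the mutants, 3 of 5 lay below the lowest wild-type value. For Snorc the means were 222 ± 131 TPM and 512 ± 297 TPM, and the difference was -1.14 ± 0.46 (SE, limma adjusted p 0.181). Chodl, Cytl1 and Scrg1 differed by -1.18, -1.01 and -0.999, and Clec3a by -0.42, with intervals that include 0. These calls depend on single libraries. Without injured wild-type mouse 3, Ucma, Snorc and Scrg1 passed, at -2.67, -1.67 and -1.77 (limma adjusted p 0.0192, 0.0183 and 0.0436), while the share of all genes called went from 0.918% to 9.50%. Without injured wild-type mouse 1 or 2, or injured mutant mouse 3, 0 members passed and 9, 7 and 11 genes were called in all. With limma's sample weights Ucma alone passed, at -2.40 (limma adjusted p 0.0339), where 4.42% of all genes were called.

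The difference between the injury changes of the genotypes was tested as an interaction. It contains the mutant injury change on which the members were chosen, so its sign, negative for all 6 (a larger drop in mutants), is not independent of that choice. Of the members 0 of 6 passed limma's test, which called 0.0% of all genes (1979, or 8.18%, had an unadjusted p under 0.05). Among the members only Ucma did, with a difference of -2.80 ± 0.98 (SE, limma adjusted p 0.511) and an interval from -4.89 to -0.72. Snorc followed at -1.47 ± 0.69, Cytl1 at -1.48 ± 1.07, Chodl at -1.38 ± 0.91, Scrg1 at -1.28 ± 0.98 and Clec3a at -0.76 ± 0.83 (SE). A different response of the genotypes was therefore not shown for any member, and intervals this wide do not show an equal one.

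**Figure D3:**
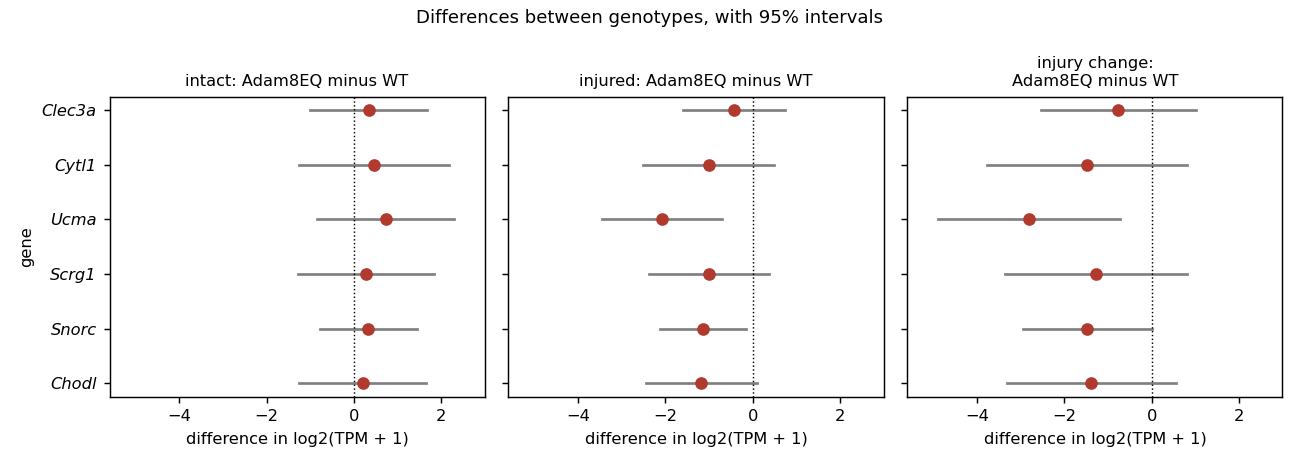
Differences in log2(TPM + 1) between Adam8EQ and wild-type discs, intact and injured, and between their injury changes, as points with 95% intervals of the limma fit. The intact points lie between 0.20 and 0.73 and the injured points between -2.07 and -0.42, and of the 6 intervals for injured discs only those of Ucma and Snorc leave out 0.

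Other genes were set beside the members through 5 lists of 60 tested genes: cartilage matrix, chondrogenic factors, and relatives or modifiers of the members, some of them known from other cells. In mutants 15 of the 60 rose and 15 fell with injury, beside 13.1% and 17.7% of all genes. With median-of-ratios scaling 17 rose and 14 fell, and the calls over all genes went from 3168 higher and 4270 lower to 3917 and 3604. In the wild type 0 of the 60 passed by limma, which called 0.107% of all genes higher, and 15 had an unadjusted p under 0.05, as did 17.2% of all genes. Without injured wild-type mouse 1, 4 of these genes were called higher and 1 lower, while the calls over all genes went from 28 to 463. Between genotypes 0 of the 60 passed in intact discs (0 at an unadjusted p under 0.05), where 0.0165% of all genes were called. In injured discs 1 passed, beside 0.918% of all genes, and 20 had an unadjusted p under 0.05, as did 20.3% of all genes. The called gene was Clec11a, a C-type lectin that acts as a growth factor. It was lower in mutants at -1.16 ± 0.14 (SE, limma adjusted p 0.00413). The 222 calls over all genes in injured discs became 7 to 2272 when single mice were left out.

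Among 18 tested genes of the core cartilage matrix, 4 rose and 7 fell in mutants, with a median change of -0.59. The largest falls were those of Cnmd (chondromodulin, a membrane protein of cartilage that inhibits vessel growth) and Cilp2 (a cartilage intermediate layer protein). Cnmd fell by 3.22 on the log2 scale (SE 0.70, limma adjusted p 0.00441), with 636 ± 55.2 TPM in intact (SD, n = 4) and 95.5 ± 60.8 TPM in injured discs (SD, n = 5), and Cilp2 fell by 2.97 (SE 0.41, limma adjusted p 0.000482). Epyc and Prg4 had the largest rises. Epyc, a small leucine-rich proteoglycan, rose by 1.64 ± 0.59 (SE, limma adjusted p 0.0459) and Prg4, the lubricating protein of joint surfaces, by 1.53 ± 0.43 (SE, limma adjusted p 0.0156). The level of Epyc stayed low, with a mean of 3.79 ± 1.80 TPM over the 5 injured mutants (SD). The polymers that define cartilage matrix, named here after their values were seen, did not pass: Col2a1 changed by -0.04 ± 0.58 (SE, limma adjusted p 0.969) and Acan by -0.29 ± 0.35 (SE, limma adjusted p 0.563). The mean level of Acan over the 5 injured mutants was 5478 ± 1979 TPM and over the 4 intact ones 6269 ± 466 TPM (SD).

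Of 12 chondrogenic transcription factors, 4 rose and 4 fell in mutants. Runx3, a runt factor of late chondrocytes and of lymphocytes, rose by 2.43 ± 0.53 (SE, limma adjusted p 0.00432) and Foxc1 by 1.66 ± 0.21 (SE, limma adjusted p 0.000329). Nkx3-2, a sclerotome factor that keeps chondrocytes immature, fell by 1.93 (SE 0.29, limma adjusted p 0.00072), and Zbtb20 fell by 1.05 (SE 0.19, limma adjusted p 0.00167). Sox9, the master factor of chondrocytes, also named after its value was seen, changed by 0.58 ± 0.24 (SE, limma adjusted p 0.0757).

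Ucma belongs to the Gla proteins, which the vitamin K cycle modifies. Of 8 tested genes of that list 2 rose and 1 fell in mutants. Mgp, the matrix Gla protein that restrains calcification, rose by 2.12 ± 0.45 (SE, limma adjusted p 0.00365), with 187 ± 23.0 TPM in intact (SD, n = 4) and 1031 ± 676 TPM in injured mutants (SD, n = 5), opposite in sign to Ucma. Furin, a protease that trims proproteins, rose by 0.57 ± 0.18 (SE, limma adjusted p 0.026). Vkorc1, which recycles vitamin K, fell by 0.90 (SE 0.24, limma adjusted p 0.0111), and Gas6 changed by -0.68 ± 0.34 (SE, limma adjusted p 0.144).

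Of 8 relatives of Clec3a and Chodl with a C-type lectin fold, 3 rose and 3 fell in mutants. Clec3b (tetranectin), of the same subfamily as Clec3a, fell by 2.27 (SE 0.52, limma adjusted p 0.00565), and Thbd (thrombomodulin) fell by 1.74 (SE 0.41, limma adjusted p 0.00619). Cd93, found on endothelial and myeloid cells, rose by 4.22 ± 0.78 (SE, limma adjusted p 0.00188), and Clec2d, known from leukocytes, rose by 2.63 ± 0.84 (SE, limma adjusted p 0.0287). The relatives thus went in both directions.

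Snorc carries chondroitin sulfate, and of 14 genes that attach and sulfate such chains 2 rose and 0 fell in mutants. Chsy1, a chondroitin synthase, rose by 1.80 ± 0.22 (SE, limma adjusted p 0.000278). The other called gene was B4galt7, at 0.64 ± 0.14 (SE, limma adjusted p 0.00444). Papss2, which makes the sulfate donor, changed by 0.86 ± 0.36 (SE, limma adjusted p 0.0865) and did not pass. The lowest values were those of Csgalnact1 at -0.54 ± 0.21 (SE, limma adjusted p 0.0599) and Xylt1 at -0.48 ± 0.24 (SE, limma adjusted p 0.135).

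**Figure D4:**
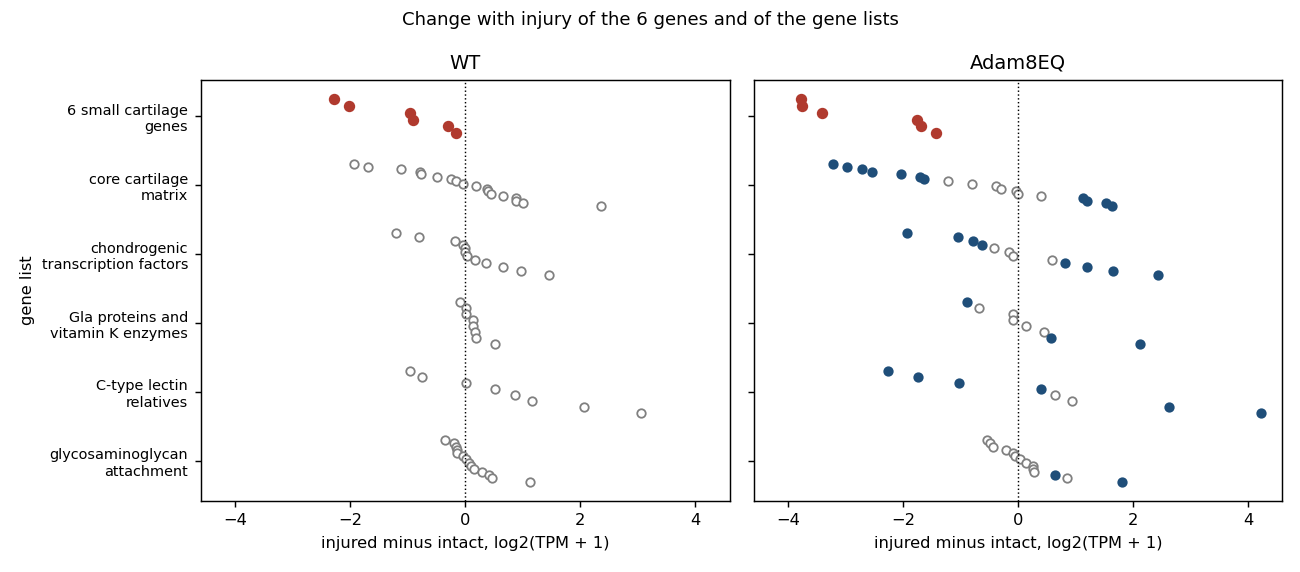
Change with injury in log2(TPM + 1) of the 6 genes (red, described without a test) and of the genes of 5 lists (filled where limma's adjusted p is under 0.05, open where not), in wild-type and Adam8EQ discs. In mutants the 6 genes lie between -3.77 and -1.43, and the core cartilage matrix spreads from -3.22 to 1.64.

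Markers of other cells moved with injury too. The summed level of 8 leukocyte markers was 119.5 to 164 TPM in intact libraries, 620.2 to 7447 TPM in injured mutants and 196, 325, 3312 and 2194 TPM in injured wild-type mice 1 to 4, and 7 of 8 rose in mutants. Injured wild-type mouse 3 and injured mutant mouse 2, the lowest in Clec3a and Scrg1 of their groups, were also the highest of their groups in these markers. The other members did not follow this in mutants. Ucma and Chodl were highest of the injured mutants in mouse 2 (46.6 and 26.2 TPM). Cytl1 and Snorc were lowest in mutant mouse 1 (54.3 and 107 TPM). The 7 notochordal markers summed to 7024 to 15815 TPM in intact libraries and 582 to 7023 TPM in injured mutants, with 4 of 6 tested genes lower, and to 3047 to 11134 TPM in the injured wild type. Shh was at 0 in all intact wild-type libraries. Of the fibroblast and scar markers 4 of 7 rose in mutants, of the bone and osteoclast markers 1 of 5 rose, and of the epidermal markers 1 of 3 fell. None of the tested muscle (5), endothelial (5), adipocyte (3) or red blood cell (5) markers passed in mutants. Over all genes limma called 13.1% higher and 17.7% lower in mutants, so single calls in lists this short are not read as a result. In the wild type limma called 0 markers of any cell type list. Krt5, a marker of epidermis, was at 0 in intact discs of both genotypes and in the injured wild type. The 6 chondrocyte markers were all detected and summed to 8676 to 11355 TPM in intact and 4474 to 17286 TPM in injured libraries. Only Hapln1 was called, in mutants, where it rose. The lowest chondrocyte sums, 5791 and 4474 TPM, were again in injured wild-type mouse 3 and injured mutant mouse 2. The part of these cell types in the levels of the 6 genes was not tested.

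How far the 6 genes varied together was described by Pearson's r of log2(TPM + 1) over the 16 libraries, 15 pairs in all, with no test. The libraries share the split into intact and injured discs, so r over levels mainly describes that split, and it ranged from 0.41 to 0.90 with a median of 0.83. Over deviations from the group means, which the split does not enter, the median was 0.58. There Clec3a and Scrg1 were the closest pair at 0.92, and Cytl1 and Snorc reached 0.82. Chodl stood apart, at 0.02 with Clec3a and -0.03 with Scrg1, and at most 0.49, with Ucma. These deviations include the split of intact mutants by library name. Mean Chodl was 204 TPM in those named A8 and 51.2 TPM in those named M. Clec3a (12134 and 14590 TPM) and Scrg1 (655 and 999.8 TPM) went the other way. The part of that split in r was not tested. Without injured wild-type mouse 3, left out after its low values were seen, the median was 0.37, Clec3a and Scrg1 were at 0.84 and Chodl and Scrg1 at -0.45.

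**Figure D5:**
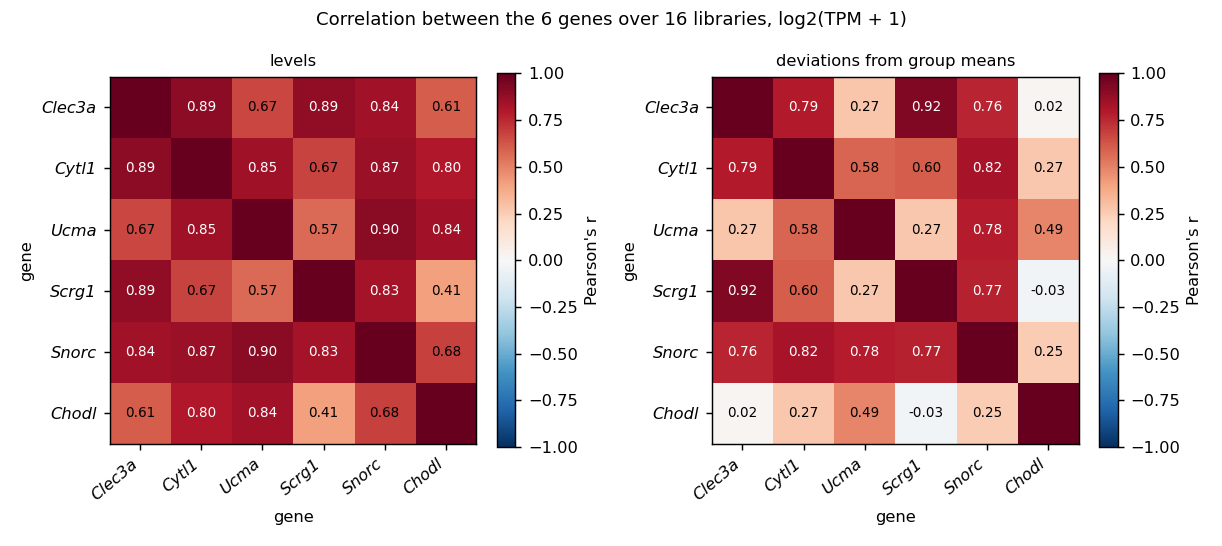
Pearson's r between the 6 genes over 16 libraries, for log2(TPM + 1) levels and for deviations from the group means. Snorc and Ucma reach 0.90 by levels and 0.78 by deviations, while Chodl and Scrg1 go from 0.41 to -0.03.

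For each member, the 5 genes with the highest r over the 16 libraries were taken. They included Cpe, Ehbp1, Chad and Psmf1 for Clec3a (0.95 to 0.97), and were Itpr3, Chst12, Angptl7, Comp and Clu for Cytl1 (0.96 to 0.97), and Cpq, Chrdl2, Chst5, Nrtn and Itih2 for Ucma (0.95 to 0.96). They were Col11a2, Col9a3, Enpp2, Nqo1 and Prkcz for Scrg1 (0.91 to 0.97), Ttc5, Itih5l-ps, Maged1, Cox4i2 and Tns2 for Snorc (0.93 to 0.94), and Ecm2, Fam83d, Otud1, Ctso and Muc15 for Chodl (0.96 to 0.97). Of these 30, 4 belong to the core cartilage matrix list, Chad, Comp, Col11a2 and Col9a3. By deviations from the group means the closest genes were Chad for Clec3a (0.98), Ttc5 for Cytl1 (0.96), Chrdl2 for Ucma (0.94), Col11a2 for Scrg1 (0.95), Chst5 for Snorc (0.91) and Ecm2 for Chodl (0.94). The 5 closest by either measure had 4 genes in common for Chodl, 3 for Ucma, 2 for Scrg1 and 1 each for Clec3a, Cytl1 and Snorc. Chad, a leucine-rich cartilage protein, and Col11a2, a collagen XI chain, were among the 5 closest by both measures, for Clec3a and Scrg1.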

How the data were processed

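Total RNA from 4 pooled tail discs per mouse was extracted with Trizol, depleted of ribosomal RNA and made into libraries, per the labels' protocols. The values are TPM, deposited as 1 table of 49315 Ensembl genes by 16 libraries that each sum to 1000000. The submitters' processing notes name GRCm38 and bcl2fastq 2.20; the aligner, counting method and annotation are not given in the sources used here. Groups and mouse numbers come from the titles. Dividing TPM by what 1 read is worth, given GENCODE M21 exon lengths, left 94.2% to 95.0% of values below 20 reads at most 0.05 from whole reads; these implied reads are approximate. limma 3.58.1 in R 4.3.3 (eBayes with a trend) was run on log2(TPM + 1) for the 24188 genes that reached 1 TPM in 3 or more libraries, all libraries in 1 fit, with Benjamini-Hochberg adjustment, a threshold of 0.05, two-sided p-values and moderated standard errors. All 6 members passed the filter. The code was tested on simulated data. The members and lists were chosen with earlier results of these data known. Members are given in every library; from each list the 2 largest rises and 2 largest falls in mutants are named, whatever their p; the 5 genes most like each member are named by Pearson's r among genes with a symbol, except 1 for Clec3a that is not reported here. Figures used matplotlib 3.10.9. Alternatives were another pseudocount (0.1), 2 other filters, 2 scalings, eBayes without the trend, sample weights, a fit of the groups compared, a replicate block, mutants by library name and leaving out each mouse.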

Additional observations from a re-analysis of the deposited data

Results flagged for a closer look

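The level of Scrg1 in injured wild-type discs was marked by 1 mouse far from the others. Mouse 3, at 120.1 TPM, was separated from the next lowest, mouse 2 at 889 TPM, by 0.874 of the whole range of the group on the log2(TPM + 1) scale, above the limit of Dixon's test for 4 values. Chance marks about 5% of groups, and 18 groups of 4 or 5 libraries were examined. Scrg1 in the other 3 mice lay at 1011, 889 and 1186 TPM.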

How the results depend on the processing

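Of the 3 tests between genotypes, 0 of 6 members passed under every setting in intact discs and for the interaction. In injured discs 1 member passed with sample weights, and 0 to 3 passed when each mouse was left out, the 3 without injured wild-type mouse 3. With the replicate block 0 members passed in each of the 3, and the calls over all genes in injured discs went from 222 to 11. Same-numbered libraries are different mice, and their deviations had a median correlation of -0.03 over 21 pairs, with 3 of 16 libraries closest to their own number. With only mutants named A8 the intact difference of Scrg1 was -0.025 and the injury change of Cytl1 in mutants -5.03. With only mutants named M the intact difference of Chodl was -0.80 and the injured difference of Clec3a 0.12. Leaving out each mouse gave -0.15 to 0.62 for Chodl between intact genotypes, and -0.48 to 0.62 for Scrg1 and -0.63 to 0.23 for Snorc under injury in the wild type, where the list genes called numbered 0 to 4 higher and 0 to 1 lower. The causes were not tested. Members had at least 21 implied reads in every library, and groups of 3 to 5 mice limit the precision.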
